A study of Caenorhabditis elegans with 2 samples.

Results

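The mitochondrial ribosomal protein genes of Caenorhabditis elegans were examined for binding of LIN-1 in L4 larvae. They were taken by name from the annotation, as every nuclear protein-coding gene whose name starts with mrpl- (large subunit of the mitochondrial ribosome) or mrps- (small subunit). This gave 70 of 19973 nuclear protein-coding genes, of which 41 were mrpl- and 29 were mrps- genes. The proteins are made in the cytosol, imported into mitochondria and assembled there with ribosomal RNA that the mitochondrial genome encodes. The finished ribosome translates the few respiratory chain subunits encoded by mitochondrial DNA. In worms, loss of mitochondrial ribosomal proteins such as MRPS-5 is known to slow respiration and to switch on the mitochondrial unfolded protein response. LIN-1 is a transcription factor with an ETS domain, a class of DNA-binding domain known to recognise words built around GGAA, and it acts downstream of Ras and ERK.

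Chromatin immunoprecipitation with sequencing (ChIP-seq) was run on whole animals of strain RW12212, in which CRISPR had placed a TY1, EGFP and 3xFLAG tag in lin-1 on chromosome IV (allele st12212). Both samples carried this tag and no untagged group was analysed. The larvae had been synchronised by starvation at L1 after bleaching and were 48 hours old, and the series holds 1 group of 2 samples, labelled as biological replicates. One label names GFP as the target of the antibody and another names lin-1. Because whole animals were used, binding in a few cells and weak binding in many cannot be told apart.

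The values are the authors' peaks on ce11. The main list is the conservative one, whose peaks had to rank alike in both replicates (irreproducible discovery rate, IDR, of 0.01 or less), and a gene is called here when the summit of such a peak lies between 1000 bp upstream and 200 bp downstream of its start. That list holds 2267 peaks, 2243 of them nuclear with a median signal of 73.8 (quartiles 60.6 and 96.1). The replicates' own lists hold 1079 and 1348 peaks, and a second list made from both replicates, called the series list, holds 2329. Read depth is unknown. With 1 group and no control list used, no test between groups was possible, and the counts below are descriptions.

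A promoter summit was found at 5 of the 70 genes, all 5 of them genes of the large subunit: mrpl-39, mrpl-32, mrpl-23, mrpl-28 and mrpl-15. The share was 7.14% (exact 95% binomial interval 2.36 to 15.9%), beside 5.25% of all nuclear protein-coding genes. The count is near that background and gives no result about the family as a whole. By subunit it was 5 of 41 mrpl- genes, or 12.2% (interval 4.08 to 26.2%), and 0 of 29 mrps- genes, for which the exact interval reaches 11.9%. The difference between subunits was not tested. In the series list 6 members had one (8.57%), beside 5.51% of all genes. Replicate 1's own list gave 4 (5.71%), beside 2.65% of all genes, and replicate 2's own list gave 3 (4.29%), beside 3.43%. These lists brought in mrpl-17, mrps-7 and mrps-21, so that 8 members had a promoter summit in at least 1 thresholded list, beside 6.37% of all genes, and 62 in none. Of the members only mrpl-39 had one in all 4 lists, beside 1.77% of all genes.

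The DNA under 6 summits in or near the promoter windows is shown to let the strongest site be compared with weaker ones of both subunits. The 6 are a selection and give no share of summits with a word. The summits at mrpl-15, mrpl-17 and mrpl-23 are not shown, and none of them has CCGGAA within 50 bp. Each stretch is the summit with 50 bases on either side, on the strand of the named gene, from the RefSeq copy of WBcel235. Capitals mark GGAA, or TTCC, which is GGAA on the other strand. The first 3 are called promoter summits, mrps-7 was called in the series list only, and the last 2 lie just upstream of the window.
mrpl-39, chrV:1821420-1821520, plus strand: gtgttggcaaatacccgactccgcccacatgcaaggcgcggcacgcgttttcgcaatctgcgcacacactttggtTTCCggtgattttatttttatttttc
mrpl-28, chrII:156102-156202, minus strand: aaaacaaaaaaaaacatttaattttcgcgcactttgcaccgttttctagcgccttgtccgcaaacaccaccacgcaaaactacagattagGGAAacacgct
mrpl-32, chrIII:8449284-8449384, plus strand: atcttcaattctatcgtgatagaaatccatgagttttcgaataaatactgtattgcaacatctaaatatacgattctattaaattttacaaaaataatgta
mrps-7, chrIV:14767851-14767951, minus strand: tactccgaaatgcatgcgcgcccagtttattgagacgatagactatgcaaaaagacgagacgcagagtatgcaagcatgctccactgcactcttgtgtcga
mrps-21, chrIV:4660476-4660576, minus strand: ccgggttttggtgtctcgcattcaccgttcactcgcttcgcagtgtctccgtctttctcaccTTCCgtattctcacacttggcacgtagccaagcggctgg
mrps-28, chrV:19643132-19643232, plus strand: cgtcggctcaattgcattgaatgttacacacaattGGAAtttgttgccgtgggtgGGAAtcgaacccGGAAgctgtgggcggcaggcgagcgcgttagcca
The mrpl-39 stretch holds 1 such word, at 25 bp past the summit, and there it is part of the longer ETS word CCGGAA, read on the other strand. The mrpl-28 stretch holds a GGAA 40 bp past the summit, with neither CCGGAA nor CGGAA around it. The mrps-28 stretch holds 3, and the one that starts 17 bp past the summit is part of CCGGAA too, and of GGAAG. The mrps-21 stretch holds 1, which is part of CGGAA and of GGAAG on the other strand. The mrpl-32 and mrps-7 stretches hold none.

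Of the large-subunit genes, mrpl-39 had the strongest peak of the family. MRPL-39 belongs to the proteins of the mitochondrial ribosome that have no bacterial counterpart. The peak (chromosome V, 1821322 to 1821617) lay in intergenic sequence and its summit was 109 bp from the start of mrpl-39. Its signal of 186 ranked 55 among the 2243 nuclear peaks. Replicate 1 had 80.6 and replicate 2 had 97.5, so both samples were high, and the IDR was 1e-05 in each list, the smallest value the lists hold. The same summit lay 147 bp upstream of gly-7, which runs the other way and encodes an enzyme that adds sugars to proteins, so the peak cannot be given to 1 of the pair.

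The peak at mrpl-28 was the other one close to a start. MRPL-28 has a counterpart in the bacterial large subunit. The peak (chromosome II, 156004 to 156299) had a signal of 79.4 and lay in intergenic sequence, with its summit 143 bp upstream of the start and in no other promoter window. Its signal was 32.9 in replicate 1 and 48.6 in replicate 2. In replicate 2's own list it passed the threshold (IDR 0.00354), whereas in replicate 1 the overlapping peak had an IDR of 0.736. In the series comparison the peak had an IDR of 0.0121 and was not called, so this call rests on the conservative list and on replicate 2.

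The summits at mrpl-32, mrpl-23 and mrpl-15 lay farther out, at 423, 983 and 622 bp upstream. Over all called genes the highest promoter summit lay at a median of 270 bp from the start, and 38.7% were within 200 bp, as were 2 of the 5 members. For mrpl-32, whose yeast counterpart is processed by a mitochondrial protease, the peak (chromosome III, 8449186 to 8449481, signal 92.1) had its summit in a non-coding exon at the end of rpn-3, 1981 bp into a gene of 1994 bp that encodes a proteasome subunit and runs in the same direction. The signal was 61.5 in replicate 1 and 30.9 in replicate 2, and only replicate 1's own list called it. Replicate 1 was the higher sample here and the lower one at mrpl-28.

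For mrpl-23, whose bacterial counterpart lines the exit of the peptide tunnel, the peak (chromosome I, 6212720 to 6213015, signal 89.8) lay in an intron of fars-1, which encodes a phenylalanyl-tRNA synthetase subunit. The signal was 47.6 in replicate 1 and 48.5 in replicate 2, but the IDR was 0.00086 and 0.0139, so that only replicate 1's own list called it. A snoRNA gene, T08B2.13, an ncRNA gene, T08B2.14, and a pseudogene lay within 200 bp of that summit, and their part in the signal was not tested. This summit was the one just inside the upstream edge of the window. The peak of mrpl-15, another protein with a bacterial counterpart, was the weakest of the 5 (chromosome I, 1435509 to 1435804, signal 51.2, IDR 0.00828). It was intergenic, with 30.8 in replicate 1 and 25.3 in replicate 2, and neither replicate's own list called it. Sequence at the chromosome I sites is not printed here.

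**Figure D1:**
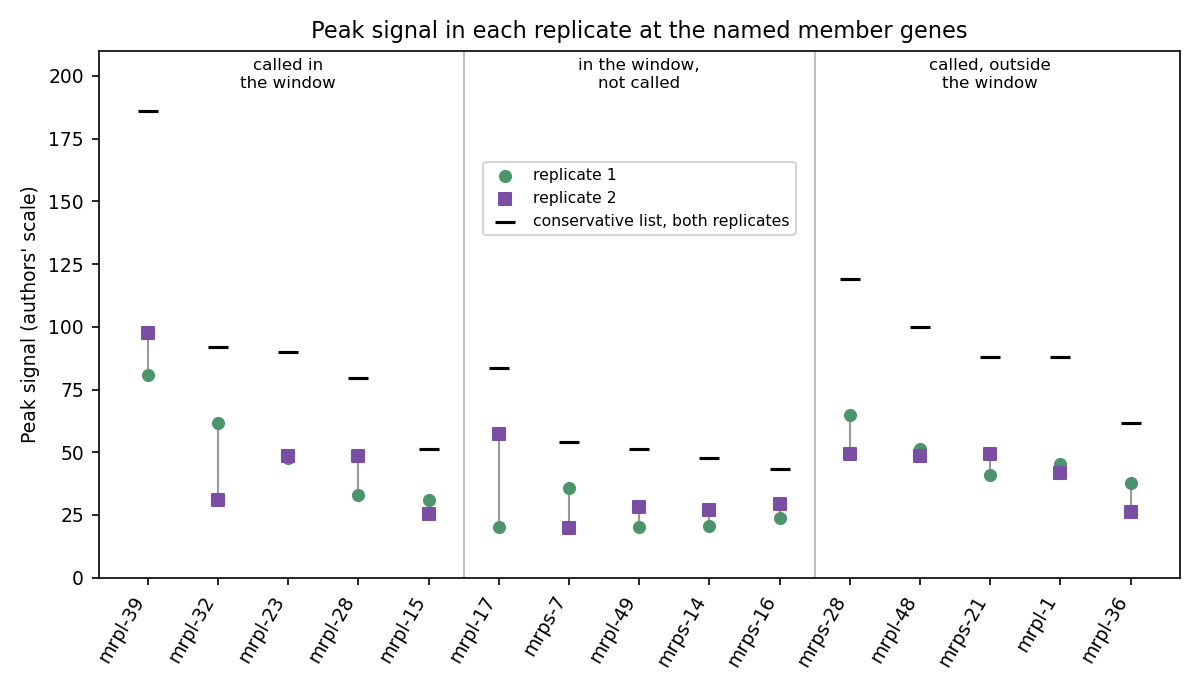
Peak signal on the authors' scale (vertical axis) at the 15 named genes, with replicate 1 as circles, replicate 2 as squares and the conservative value from both replicates as a dash. Only mrpl-39 stands above 80 in both replicates, and the replicates lie far apart at mrpl-32 (61.5 and 30.9) and at mrpl-17 (20.3 and 57.2).

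With peaks below the authors' threshold included, weak peaks were common at the family. The ranked conservative list, which keeps 48593 peaks of any IDR, had a promoter summit at 49 of 70 members, or 70% (interval 57.9 to 80.4%), beside 44.6% of all genes. For the large subunit it was 28 of 41 (68.3%) and for the small subunit 21 of 29 (72.4%). A best promoter peak with an IDR of 0.05 or less was present at 12 members (17.1%), beside 8.08% of all genes. Called genes are part of these shares and of the medians that follow, and the 5 called members are among the 49 and the 12. Most of the ranked peaks were weak: the median signal of the best one was 26.4 at the members and 25.8 over all genes, and the median IDR was 0.428 and 0.535. At 21 of the 49 the IDR was above 0.5.

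**Figure D2:**
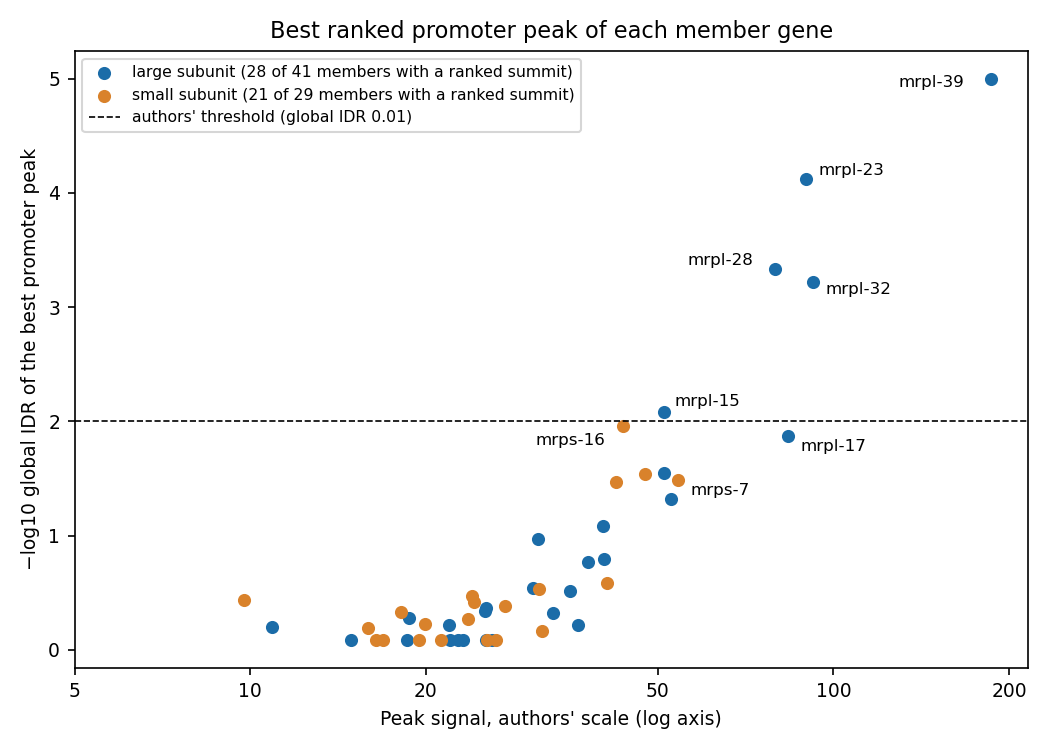
IDR of the best ranked promoter peak of each gene, as −log10 (vertical axis), against its signal (horizontal log axis), for the 49 members that had one. The 5 called genes lie above the dashed threshold, mrpl-39 alone at the top, and the small-subunit genes all lie below it, mrps-16 closest.

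The 5 members closest below the threshold were mrps-16, mrpl-17, mrpl-49, mrps-14 and mrps-7. At mrps-16, a gene of a small-subunit protein shared with bacteria, the summit lay 149 bp upstream with a signal of 43.5 and an IDR of 0.011, just above the limit. The same peak had an IDR of 0.332 in the series comparison, 0.678 in replicate 1 and 0.146 in replicate 2. Its signal was 23.7 in replicate 1 and 29.5 in replicate 2, so both samples were low. At mrpl-17, for a large-subunit protein shared with bacteria, the summit lay 181 bp upstream with a signal of 83.7 and an IDR of 0.0135, and 241 bp upstream of vbh-1, an RNA helicase gene that runs the other way. Replicate 2 was high at 57.2 and called it in its own list (IDR 0.000525), while replicate 1 was low at 20.3 (IDR 0.177). The series list called it too.

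At mrps-7, for a protein of the head of the small subunit, the order of the replicates was the opposite, with 35.7 in replicate 1 and 20 in replicate 2. The summit lay 171 bp upstream, the signal was 54.2, and the IDR was 0.0329 in the conservative comparison and 0.0091 in the series comparison, where it was called. At mrpl-49, a protein without a bacterial counterpart, the summit lay 195 bp upstream (signal 51.3, IDR 0.0282) and in the promoter window of rpl-28 as well, a gene of the cytosolic ribosome. Its signal was 20.3 in replicate 1 and 28.3 in replicate 2. At mrps-14 the summit lay in its own coding sequence, 7 bp past the start, with a signal of 47.6 and an IDR of 0.029. There the signal was 20.6 in replicate 1 and 27 in replicate 2.

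In the replicates' own ranked lists, 42 members (60%) had a promoter summit in replicate 1 and 46 (65.7%) in replicate 2. Over all genes the shares were 41.0% and 38.8%. Both replicates had one at 33 members, beside 25.2% of all genes, and neither at 15, beside 45.4%. Over the 33, the highest signal per gene ranged from 8.19 to 80.6 in replicate 1, with a median of 18.2, and from 9.23 to 97.5 in replicate 2, with a median of 20.5. All genes with a summit in both had medians of 17.6 and 19.6. The Spearman correlation of the replicates was 0.58 across the 33 members and 0.60 across 5029 genes, which is a description over genes that share 2 libraries. No ranked list had a promoter summit at 9 members (mrpl-4, mrpl-11, mrpl-34, mrpl-37, mrpl-46, mrps-15, mrps-18.C, mrps-23 and mrps-27), beside 37.9% of all genes.

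The gene starts of the family are crowded. A protein-coding gene lay within 500 bp upstream of 49 of 70 members, on the same strand at 29 (41.4%) and on the opposite strand at 20 (28.6%), beside 20.6% and 13.1% of all genes. In worms, genes that follow each other closely on a strand are often transcribed as an operon from 1 promoter. Some members lay close to each other. The starts of mrpl-1 and mrps-24 lay 344 bp apart on opposite strands, with emc-6 as the nearest upstream gene of both. Those of mrps-2 and mrpl-4 lay 1579 bp apart on the same strand. The promoter windows of mrpl-1 and mrps-24 overlap. In replicate 2 the highest ranked promoter signal was a weak 19.2 at both, which may be 1 peak counted for both genes. Crowding went with more ranked summits over all genes, with 51.2% for a same-strand neighbour, 55.3% for an opposite one and 40.5% for none. At the members the shares were 69%, 60% and 81%, so that the 21 members with no close neighbour had the highest. For called summits over all genes the same-strand class was the lowest, with 3.95%, beside 6.93% for an opposite neighbour and 5.32% for none. At the members the called counts were 2 of 29, 1 of 20 and 2 of 21.

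**Figure D3:**
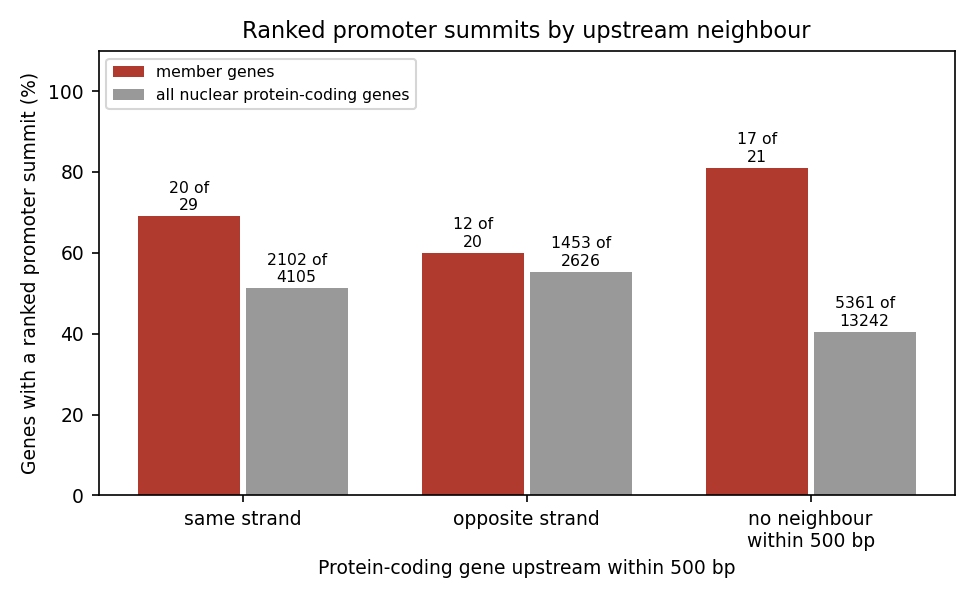
Share of genes with a ranked promoter summit (bars, in percent) by the upstream protein-coding neighbour within 500 bp, for the members and for all nuclear protein-coding genes. The member bars are the higher ones in each class, narrowly so for opposite-strand neighbours (60% beside 55.3%).

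Called summits just beyond the window were found at 5 further members. The nearest to its edge was that of mrps-21, for a small-subunit protein shared with bacteria, at 1009 bp upstream (88 in the conservative list, 41 for replicate 1, 49.1 for replicate 2). Replicate 1's own summit, at 974 bp, fell inside, which is why its list alone called this gene. Other genes start closer to the peak, which lay 325 bp upstream of F29B9.11, the gene that precedes mrps-21 on the same strand, and 465 bp upstream of jmjd-1.2, a histone demethylase gene. At mrps-28 the summit lay 1057 bp upstream, with a signal of 119 (65 and 49.2), in an intron of Y43F8C.7 and within 200 bp of the snoRNA gene Y43F8C.22.

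The remaining 3 were genes of the large subunit. At mrpl-36 an intergenic summit lay 1227 bp upstream and had 61.8 as its signal (37.8 for replicate 1, 26.1 for replicate 2) and in no promoter window. At mrpl-1 the summit lay 1320 bp upstream with a signal of 87.9 (45.2 and 41.9), and only 38 bp past the start of nhr-8, a nuclear hormone receptor gene. At mrpl-48 it lay 1641 bp upstream with a signal of 100.1 (51.2 and 48.7), and 635 bp upstream of vps-37, a gene of endosomal sorting that precedes mrpl-48 by 93 bp on the same strand. At 4 of the 5, replicate 1 was the higher sample, and mrps-21 was the exception.

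**Figure D4:**
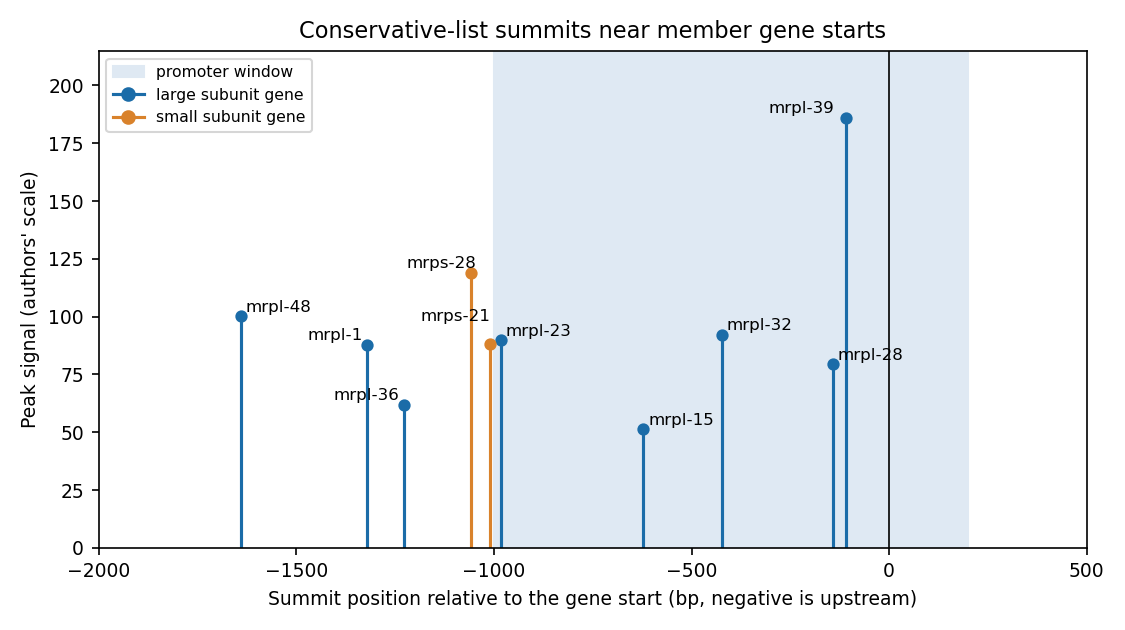
Signal of the conservative peaks (vertical axis) against the position of the summit relative to the start of the member gene (horizontal axis, bp), with the promoter window shaded. The tallest line, mrpl-39, is also the one nearest to a start, and mrpl-23 and mrps-21 lie at 983 and 1009 bp, on either side of the edge.

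If a gene is followed back along its strand through neighbours no more than 500 bp apart, the summit can be looked for at the start of the whole run. This was chosen after the data were seen. It added mrpl-48 (run starting at vps-37), mrps-21 (F29B9.11), mrps-14 and mrps-30, so that 9 of 70 members had a called summit at their own or their run's start, or 12.9%, beside 6.76% of all genes. Only genes with a close same-strand neighbour can gain by this rule, and these were 41.4% of members beside 20.6% of all genes. The 6.76% is therefore not a matched background. For mrps-14 the run started at nrde-2, a gene of nuclear RNA interference, with a summit 906 bp upstream of it (signal 80.8, with 28.3 in replicate 1 and 53.6 in replicate 2). For mrps-30 it started at eif-3.E, a translation initiation factor gene, with a summit 209 bp upstream (signal 61.7, with 29.2 and 33.6). Whether these genes are transcribed together was not tested.

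The edges of the window decided several of these counts. With a window of 500 bp upstream to 100 bp downstream, 3 members were called (mrpl-28, mrpl-32 and mrpl-39), beside 3.84% of all genes. With 2000 bp upstream to 500 bp downstream it was 10, the 5 of the main window and the 5 further members described above, beside 7.72%. When a peak had only to overlap the window it was 7, with mrps-21 and mrps-28 added, beside 5.68%. The same 5 members were called when a summit counted for the nearest protein-coding start alone (4.21% of all genes), for the start of any transcript (5.94%) or without repeats of stronger peaks (5.22%). At an IDR of 0.001 or less, mrpl-15 was lost and 4 remained, beside 2.95%.

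With only 5 called summits, the words near them are given as counts. CCGGAA, on either strand within 50 bp of the summit, was present at 1 of the 5 (mrpl-39), beside 3.39% of nuclear conservative summits, 2.42% of those in promoter windows and 5.4% of ranked summits with an IDR above 0.5. CGGAA, which CCGGAA contains, was present at the same 1 of 5, beside 16.4% of nuclear conservative summits. GGAAG was present at none, beside 18.6%, and the core GGAA, which all 3 words contain, at 3 of 5, beside 58.2%. Ranked summits with an IDR above 0.5 had higher shares than the nuclear conservative ones here too, with 19.5% for CGGAA, 19.4% for GGAAG and 66.3% for GGAA. In the whole promoter window CCGGAA was present at 29 of 70 members (41.4%), beside 33.4% of all genes, and GGAAG at 82.9% beside 85.8%.

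The other nuclear genes of mitochondria and the cytosolic ribosome set these counts in context, by the same window and list. Among cytosolic ribosomal protein genes the count was 26 of 81 (32.1%, interval 22.2 to 43.4%), with a median signal of 110.5. Genes of the respiratory chain and ATP synthase had 8 of 47 (17%, interval 7.65 to 30.8%). Mitochondrial chaperones, proteases and stress genes had 4 of 14 (28.6%, with a wide interval of 8.39 to 58.1%). These were the chaperone genes hsp-60 (signal 163) and hsp-6 (64.9), the protease gene ymel-1 (72.2) and atfs-1 (83.8), the transcription factor of the mitochondrial unfolded protein response. Protein import had 1 of 13 (7.69%, interval 0.195 to 36%), timm-23 (signal 70.6). Of the mitochondrial translation factors 0 of 4 and of the genes for upkeep and transcription of mitochondrial DNA 0 of 5 had one, and such short lists leave room for shares of up to 60.2% and 52.2%. The mitochondrial ribosomal proteins thus lay nearer to the 5.25% of all genes than the cytosolic ones did, and in this window and list the intervals did not overlap. They did overlap when a summit counted for the nearest protein-coding start alone, where the cytosolic count was 17 of 81 (21%, interval 12.7 to 31.5%) and that of the mitochondrial ones stayed at 5 of 70. They also overlapped in the window of 2000 bp upstream to 500 bp downstream, with 10 of 70 (14.3%, interval 7.07 to 24.7%) and 27 of 81 (33.3%, interval 23.2 to 44.7%). No test of the difference was run.

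**Figure D5:**
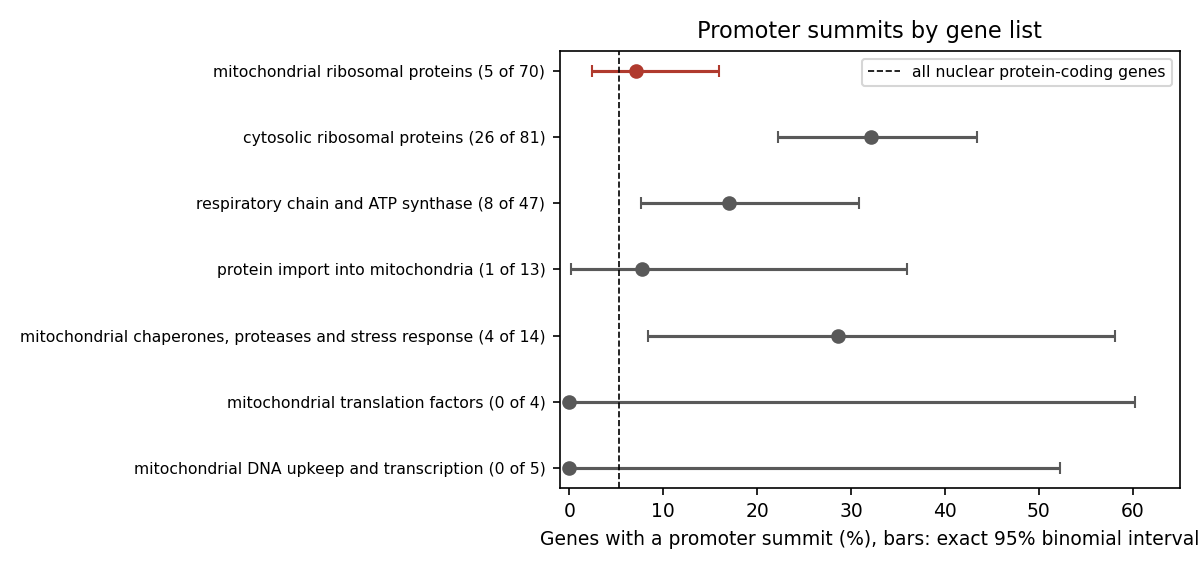
Share of genes with a promoter summit (percent, points) and its exact 95% binomial interval (bars) for each list of genes, with all nuclear protein-coding genes as a dashed line. The interval of the mitochondrial ribosomal proteins spans the line, and that of the cytosolic ribosomal proteins, from 22.2 to 43.4%, lies above it.

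No member lies on chromosome X. Members lay on the autosomes with 22 on III, 15 on I, 12 on II, 11 on IV and 10 on V. They did not follow the number of genes per chromosome: III holds 2640 protein-coding genes and V holds 4994. No background matched for this was computed. The autosomal background was 5.14% for called summits and 44.7% for ranked ones, close to the values over all chromosomes. The nearest called summit lay at a median of 13.5 kb from a member's start, beside 20.1 kb for all genes. Within 5 kb, 21 of 70 members had one, beside 18.4% of all genes. These distance backgrounds include chromosome X and were matched neither for chromosome nor for the crowding of gene starts. Whether called summits lie closer to the family than to genes in similar surroundings was therefore not tested.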

How the data were processed

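Peak lists of 2 replicates were analysed, from deposited files on ce11, per the file names. Each thresholded list has a score and a signal value per peak as deposited by the authors, whose scale is not stated. Each ranked list also holds the −log10 of the global IDR, deposited by the authors. All thresholded peaks had a global IDR of 0.01 or less. A control alignment is named in the deposited notes, and no source used here names the peak caller or the aligner. Gene starts came from Ensembl 115 on WBcel235, the same assembly as ce11, and sequence from RefSeq. A replicate's signal is the highest of its own ranked peaks overlapping the peak. Lookups were tested on simulated data, in Python 3.11.15 with scipy 1.17.1. Intervals are exact (Clopper-Pearson), cover counting error over genes only, and genes are not independent. The members, lists and words were chosen with earlier results of these data known. Genes are named by rule: members with a promoter summit in any thresholded list, the 5 closest below the threshold, those with a called summit up to 2000 bp upstream or 500 bp downstream, and genes sharing these summits. Members of the related lists and of same-strand runs were named after their values were seen. Of the translation factor names, 3 were not found in the annotation.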

Additional observations from a re-analysis of the deposited data

How the results depend on the processing

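The count of 5 members with a promoter summit stayed at 5 with the nearest protein-coding start alone, with the start of any transcript and without repeats of stronger peaks, and was 4 at an IDR of 0.001 (without mrpl-15), 6 in the series list and 7 when a peak had only to overlap the window. It was 3 with a window of 500 bp upstream to 100 bp downstream (beside 3.84% of all genes), 10 with 2000 bp to 500 bp (beside 7.72%) and 9 with the start of the same-strand run, and it ranged from 3 without replicate 1 (mrpl-17, mrpl-28 and mrpl-39) to 4 without replicate 2 (mrpl-23, mrpl-32, mrpl-39 and mrps-21), as the other replicate's own list gives them. For the large subunit the count of 5 became 3 and 8 with those narrow and wide windows and was 3 without either replicate. For the small subunit the count of 0 became 2 with the wide window, 2 for overlapping peaks, 1 in the series list and 3 with the run start, and ranged from 0 to 1 without 1 replicate. That no small-subunit gene was called therefore depends on the list and the window. Called peaks with CCGGAA went from 1 to 2 within 100 bp on either side, and 0 had GGAAG. The 49 members with a ranked summit ranged from 37 in the narrow window (beside 31.1% of all genes) to 48 in the series list. In each of these settings mrpl-39 was called. The count of cytosolic ribosomal protein genes fell from 26 to 17 with the nearest start alone, and that of the chaperone and stress list from 4 to 2 there, at an IDR of 0.001 and without either replicate. No paired analysis was possible because the series holds 1 group. Read depth is unknown, so a missing call does not show that binding is absent.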
